A study of Homo sapiens with 27 samples.

Results

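The 40 genes described here carry the cell division cycle: 9 G1 cyclins, kinases and phosphatases, 5 inhibitors of cyclin-dependent kinases (CDKs), RB1 with 3 E2F factors, 9 genes of DNA replication in S phase, and 13 genes of G2 and mitosis. They were taken from the table of RNA counts by the gene symbol that belongs to each Ensembl identifier, and each of the 40 matched exactly 1 of the 44852 genes tested, and no member was lost to the filter on low counts. The libraries came from H1, a human embryonic stem cell line, grown on 3 laminin coatings named here by their leading isoform, LN523, LN323 and LN521. Laminins are basement membrane proteins of 3 chains. The sample labels give the LN523 and LN521 coatings as mixtures with LN323 and give LN323 as used alone, whereas the study's methods describe LN523 and LN323 mixed with LN521 and LN521 alone, so the exact mixtures cannot be told apart here.

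Day 2 libraries were undifferentiated cells, taken before neural induction medium with CKI-7 and SB431542 was given. Day 22 and day 32 libraries were taken in photoreceptor differentiation medium with BDNF, CNTF, retinoic acid and DAPT, a gamma-secretase inhibitor, on the way to photoreceptor progenitors. Each of the 9 matrix-by-day groups had 3 libraries, 27 in all, of total RNA from unsorted wells of 1 cell line with no genetic change. The replicate number in each group is also its sequencing lane, and values below are given in the order of lanes 1, 2 and 3. Nothing in the labels says that replicates were separate cultures, so p-values measure only the spread between these libraries.

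Cells in G1 raise D-type cyclins, which switch on CDK4 and CDK6. These kinases and cyclin E with CDK2 phosphorylate RB1, which otherwise holds E2F factors back from the genes of DNA replication. The INK4 proteins (CDKN2A, CDKN2B, CDKN2C, CDKN2D) inhibit CDK4 and CDK6, while p21 (CDKN1A) and p27 (CDKN1B) bind several cyclin and CDK pairs. In mitosis, cyclin B with CDK1, the Aurora and Polo kinases and the CDC20 form of the anaphase-promoting complex act in turn, and FOXM1 activates many of their genes. Pluripotent stem cells have a short G1 and few CDK inhibitors, and retinal progenitors divide before their daughters leave the cycle as neurons.

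Library totals ran from 25620624 to 47340990 counts. The 7 pluripotency markers, led by POU5F1, all fell from day 2 to day 22 on each matrix, and 7 of 8 retinal progenitor markers rose (SOX2, also a stem cell gene, fell). CRX, which marks the photoreceptor lineage, stood at only 4.99 ± 2.75 CPM (counts scaled to library size, SD, n = 3) at day 22 and 23.1 ± 15.7 CPM at day 32 on LN523. A pair of LN521 libraries stood apart. Replicate 1 at day 22 held 73.8 CPM of POU5F1 and 180.2 CPM of STMN2, a neuronal gene, against group minima of 1.33 and 7.58 CPM, and its 10 neuronal markers summed to 568 CPM against 85.0 and 35.9 CPM in the group's other libraries. Replicate 1 at day 32 summed to 624 CPM of neuronal markers against 151 and 142 CPM. Their part in the results was not tested beyond leaving them out.

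Between day 2 and day 22, most replication and mitotic genes fell and most CDK inhibitors rose. On LN523, 24 members were called lower and 9 higher at an adjusted p of 0.05 (edgeR quasi-likelihood test, Benjamini-Hochberg adjustment over all genes), where 10.2% of all genes tested were called lower and 11.5% higher. On LN323, 24 members were lower and 8 higher (10.9% and 11.8% of all genes), and on LN521, 19 were lower and 10 higher (8.09% and 10.8%). Among genes with a mean of 1 CPM or more, the shares called lower and higher were 23.7% and 26.4% on LN523, 25.2% and 26.9% on LN323, and 17.8% and 25.8% on LN521. The median log2 fold change over the 40 members was -1.03, -1.19 and -0.78 on LN523, LN323 and LN521, beside medians over all genes of 0.020, 0.019 and -0.018. In bulk RNA, fewer dividing cells and less RNA per cell cannot be told apart.

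**Figure D1:**
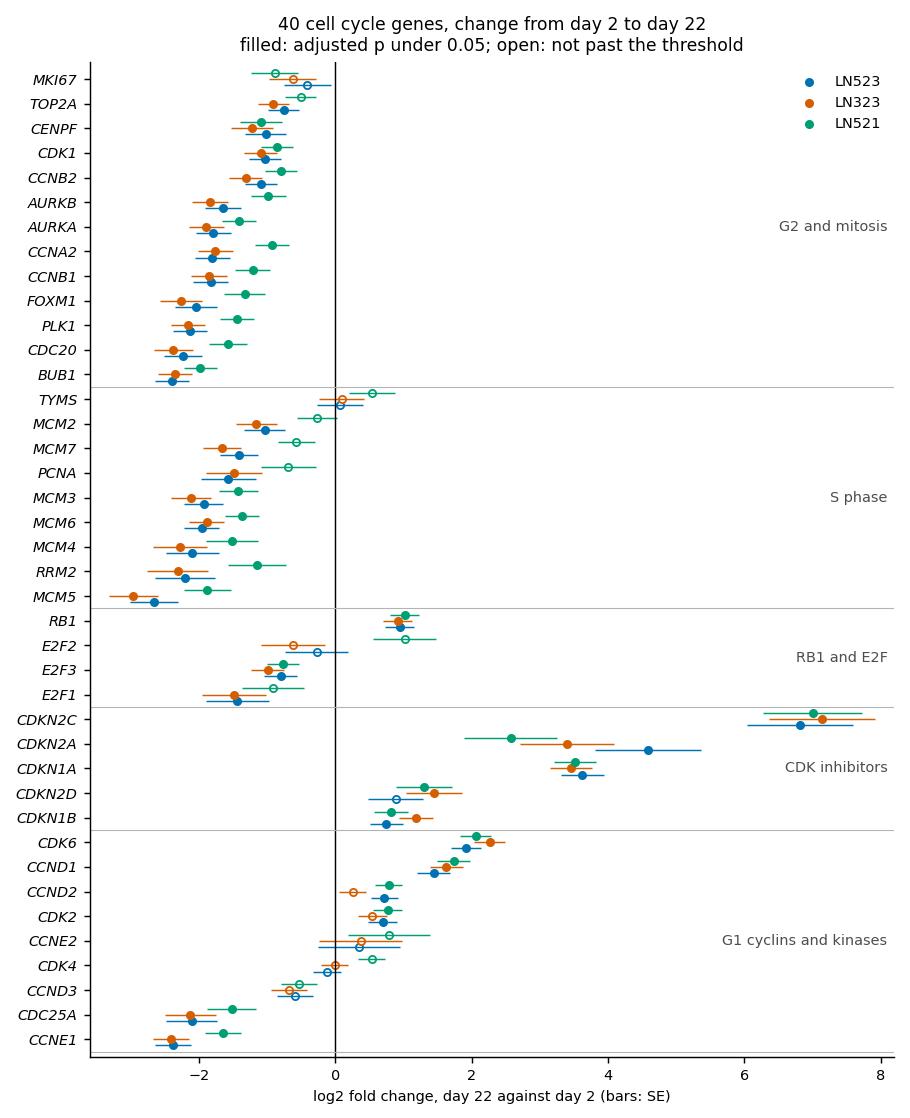
Log2 fold change from day 2 to day 22 for each of the 40 cell cycle genes, grouped by role, on LN523, LN323 and LN521 (horizontal axis, log2 scale). Points are fitted values, bars are standard errors, and filled points passed an adjusted p of 0.05. No S phase or mitotic gene rose past the threshold, and no CDK inhibitor fell past it.

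The 9 G1 genes split. On LN523, 4 were called higher (CCND1, CCND2, CDK2 and CDK6), 2 lower (CCNE1 and CDC25A), and CCND3, CCNE2 and CDK4 did not pass. On LN323, CCND1 and CDK6 were higher and the same pair lower, and on LN521 the calls were those of LN523. Some alternatives also called CDK2 higher on LN323, among them DESeq2, another test (0.53, DESeq2 adjusted p = 0.0055). DESeq2 called CCND3 lower on LN523, LN323 and LN521 (-0.61, -0.69 and -0.63, DESeq2 adjusted p = 0.044, 0.019 and 0.042). CCND1, which encodes cyclin D1, measured 138, 145 and 104 CPM at day 2 on LN523 and 461, 218 and 422 CPM at day 22. Every day 22 library was above every day 2 library, and the log2 fold change was 1.44 ± 0.24 (SE), 1.63 ± 0.24 on LN323 and 1.74 ± 0.25 on LN521. CDK6, a partner kinase of the D cyclins, went from 27.2, 55.2 and 29.2 CPM to 112, 163 and 138 CPM on LN523, a rise of 1.92 ± 0.22 on the log2 scale, with 2.27 ± 0.23 on LN323 and 2.06 ± 0.23 on LN521. These gains stood against the loss of cyclin E1. CCNE1 measured 83.3, 78.8 and 64.0 CPM at day 2 on LN523 and 13.3, 18.8 and 11.6 CPM at day 22, and it fell by 2.39 on the log2 scale (SE 0.27), and fell by 2.41 on LN323 and by 1.65 on LN521. CDC25A, the phosphatase that activates CDK2, measured 201, 209 and 125 CPM at day 2 and 25.9, 69.9 and 32.9 CPM at day 22 on LN523, and was lower in every library.

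The make-up of each G1 family moved with these genes, as shares of TPM (transcript abundance, which divides by gene length). CCND1 held 35.9% ± 5.39 (SD, n = 3) of the TPM of the 3 D cyclins at day 2 on LN523 and 49.7% ± 11.1 at day 22, where lane 2 was the lowest at 37.0%. On LN323 the share went from 28.1% ± 3.92 to 50.8% ± 1.62, and on LN521 from 29.0% ± 6.04 to 46.2% ± 3.85, with no overlap on these 2 matrices. CDK4 held 93.3% ± 1.79 of the CDK4 and CDK6 sum at day 2 and 77.2% ± 1.90 at day 22 on LN523, and the ranges did not overlap on any matrix. CDK4 itself measured 133, 152 and 107 CPM at day 2 and 105, 150 and 107 CPM at day 22 on LN523, so its share moved while its level passed no test. On LN521 its value was 0.53 ± 0.20 and did not pass, and it was 0.61 ± 0.22 (adjusted p = 0.038) without replicate 1 of LN521 at days 22 and 32, an alternative chosen after seeing the data. CDK4 shares 44.2% of its exonic length with TSPAN31 on the other strand, and whether counting used strand is not stated, so its level is uncertain. Genes on the other strand also cover 37.1% of the exonic length of CCNE2, 23.6% of MCM2, 20.4% of CDKN2C, 16.8% of CDK2 and 15.9% of FOXM1.

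Of the 5 CDK inhibitors, 4 were called higher at day 22 on LN523 and 5 on LN323 and LN521. CDKN1A (p21) had the strongest gain among those well detected at day 2. It measured 15.8, 5.23 and 7.37 CPM at day 2 on LN523 and 163, 54.3 and 125 CPM at day 22, a log2 fold change of 3.62 ± 0.31 (edgeR adjusted p = 1.1e-13). On LN323 it went from 10.8, 7.77 and 7.66 CPM to 138, 48.4 and 111 CPM, and on LN521 from 7.88, 7.68 and 8.50 CPM to 77.5, 103 and 89.6 CPM. No day 22 library overlapped day 2, and lane 2 was the lowest at day 22 on LN523 and LN323 and the highest on LN521. CDKN1B (p27) rose less, by 0.75 ± 0.25 on LN523, 1.18 ± 0.25 on LN323 and 0.81 ± 0.25 on LN521 in log2 fold change. CDKN1A accordingly went from 17.8% ± 8.03 and 21.4% ± 6.50 of the CDKN1A and CDKN1B TPM at day 2 on LN523 and LN323 to 59.9% ± 9.52 and 54.4% ± 9.03 at day 22 (SD, n = 3). On leaving out 1 library, the CDKN1B call was lost in 2 cases on LN523 and 1 on LN521 (edgeR adjusted p up to 0.12 and 0.145).

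CDKN2C (p18) was almost absent at day 2, with 2 counts over the 3 LN523 libraries, 2 on LN323 and 4 on LN521. At day 22 the same groups held 326, 366 and 592 counts, or 1.62, 3.14 and 3.55 CPM by library on LN523. The ratio of depth-scaled levels was 131 on LN523 with a 95% counting interval of 36.0 to 1088, 180 (49.5 to 1492) on LN323 and 141 (54.8 to 520) on LN521. These intervals, and those for CDKN2A below, treat every count as independent and cover no spread between libraries. Every CDKN2C count in the 27 libraries was even, so counts may not be independent and the intervals may be too narrow. CDKN2A, whose locus makes p16 and p14ARF, had 6 counts at day 2 on LN523 and 198 at day 22, a ratio of 26.6 (12.0 to 73.3), against 10.8 (6.64 to 18.5) on LN323 and 6.05 (3.76 to 10.2) on LN521. Even so, CDKN2A had the lowest mean TPM of all members over the 27 libraries (1.16), below CCNE2 (2.71) and CDKN2C (3.92), and 15.3% of its exonic length overlaps genes on the other strand. CDKN2D (p19) was called on LN323 (1.44 ± 0.41) and LN521 (1.30 ± 0.41) and measured 0.88 ± 0.41 on LN523, all in log2 fold change.

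RB1, the brake on E2F factors, rose on each matrix, by 0.94 ± 0.21, 0.92 ± 0.21 and 1.02 ± 0.21 in log2 fold change on LN523, LN323 and LN521. On LN523 it measured 26.1, 35.3 and 41.1 CPM at day 2 and 65.2, 60.2 and 70.5 CPM at day 22. The activator E2F1 measured 54.3, 68.5 and 48.6 CPM at day 2 and 12.1, 41.1 and 13.6 CPM at day 22 on LN523, and fell by 1.44 on the log2 scale (SE 0.46). It fell by 1.49 on LN323 and had a value of -0.92 ± 0.46 on LN521, which did not pass. Without replicate 1 of LN521 at days 22 and 32 that value was -1.16 ± 0.44 (adjusted p = 0.049), and in the fit of the 9 LN521 libraries alone it was -0.92 (adjusted p = 0.0079). The E2F1 call was lost in 6 alternatives on LN523 and 5 on LN323, among them filterByExpr and total count scaling, with adjusted p up to 0.23 and 0.24. E2F3 fell on each matrix, by 0.80, 0.99 and 0.77, calls that were lost in 3, 1 and 4 alternatives. E2F2 was called on none of them by the main test, with values of -0.28, -0.62 and 1.02. On LN521 it was called higher in the fit of the 9 LN521 libraries alone (1.04, edgeR adjusted p = 0.014). It was also called higher there without LN521 day 22 replicate 3 (1.44, edgeR adjusted p = 0.027).

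Replication genes fell together. Of 9 S phase members, 8 were called lower on LN523 and LN323 and 5 on LN521. MCM2 to MCM7 form the helicase that unwinds DNA, PCNA is the sliding clamp of the polymerases, RRM2 is a subunit of ribonucleotide reductase and TYMS makes thymidylate. MCM5 measured 621, 713 and 423 CPM at day 2 on LN523 and 66.7, 164 and 61.5 CPM at day 22, a fall of 2.66 on the log2 scale (SE 0.35), with falls of 2.97 on LN323 and 1.88 on LN521. PCNA, the member with the highest mean TPM (397), measured 317, 310 and 228 CPM at day 2 and 61.1, 171 and 70.9 CPM at day 22 on LN523, a fall of 1.57 (SE 0.41). RRM2 fell by 2.21 (SE 0.44) and MCM4 by 2.10 (SE 0.39) on LN523. MCM2 fell by 1.04 on LN523 and 1.16 on LN323 and had a value of -0.27 ± 0.30 on LN521. TYMS passed on no matrix, with log2 fold changes of 0.07, 0.09 and 0.54. On leaving out 1 library, the call of MCM2 was lost in 3 cases on LN523 and 2 on LN323 (adjusted p up to 0.15 and 0.12), and that of PCNA in 2 on each (up to 0.070 and 0.13). The RRM2 call on LN521 was lost in 8 alternatives, with adjusted p up to 0.38. Of the exonic length of TYMS, 47.9% overlaps ENOSF1 and TYMSOS on the other strand.

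Of 13 genes of G2 and mitosis, 12 were called lower on LN523 and LN323 and 11 on LN521. BUB1, a kinase of the spindle checkpoint, measured 283, 279 and 337 CPM at day 2 on LN523 and 39.2, 54.1 and 81.3 CPM at day 22. It fell by 2.40 (SE 0.25), by 2.36 on LN323 and by 1.98 on LN521, with no overlap between days. CDC20, which directs the anaphase-promoting complex to its targets, measured 329, 367 and 282 CPM and then 46.7, 73.6 and 93.6 CPM, a fall of 2.24 (SE 0.28). PLK1, the Polo kinase, fell by 2.13 (SE 0.25) and CCNB1, cyclin B1, by 1.83 (SE 0.26) on LN523 and by 1.21 (SE 0.26) on LN521, where it went from 293, 316 and 336 CPM to 167, 119 and 115 CPM. CDK1 fell less, by 1.03 (SE 0.24), from 95.8, 114 and 136 CPM to 38.8, 62.9 and 69.5 CPM. TOP2A, the topoisomerase that untangles sister chromatids, fell by 0.76 on LN523 and had a value of -0.51 ± 0.22 on LN521, which did not pass, and -0.84 ± 0.22 (adjusted p = 0.0023) without replicate 1 of LN521 at days 22 and 32. CENPF fell by 1.03 on LN523. The CDK1 call on LN521 was lost without LN521 day 22 replicate 2 or 3, with adjusted p up to 0.14.

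MKI67, which encodes the proliferation antigen Ki-67, was called on no matrix between day 2 and day 22 by the test over all 27 libraries, and the call depended on the libraries in the fit. On LN523 it measured 134, 132 and 144 CPM at day 2 and 54.7, 149 and 104 CPM at day 22, so the days overlapped (log2 fold change -0.41 ± 0.35, edgeR adjusted p = 0.53). Without LN523 day 22 replicate 1 the value was 0.078. On LN323 it was -0.63 ± 0.35 and on LN521 -0.89 ± 0.35, where replicate 1 stood at 349 CPM at day 2 and 204 CPM at day 22 against 203 and 121 CPM, and 90.3 and 68.7 CPM, in the other libraries. The fit of each matrix's 9 libraries alone called it on LN323 (-0.72 ± 0.20, adjusted p = 0.0024) and LN521 (-0.93 ± 0.23, adjusted p = 0.0005), and RLE scaling called it on LN521 (adjusted p = 0.041). Leaving out replicate 1 of LN521 at days 22 and 32 gave MKI67 -1.65 ± 0.32 (adjusted p = 2.2e-05), and the LN521 total became 22 members lower and 10 higher.

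**Figure D2:**
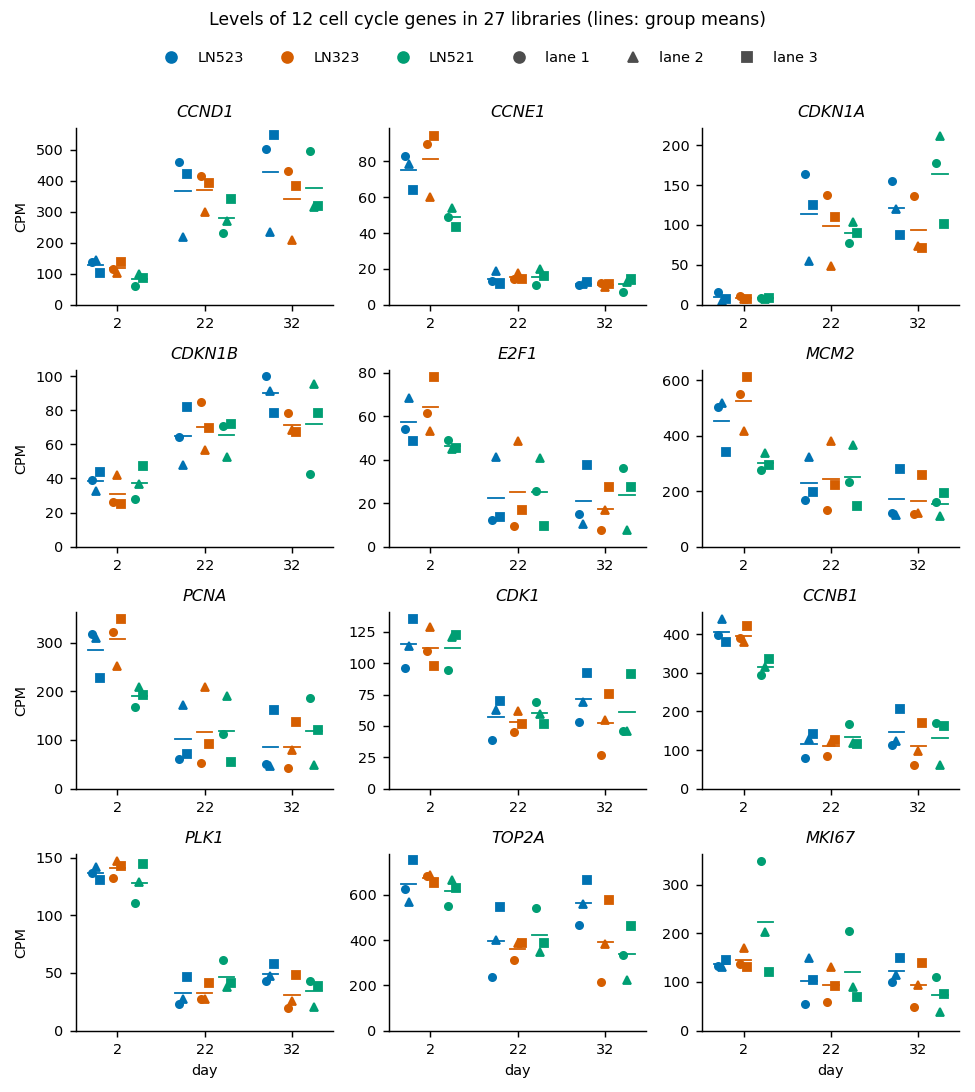
CPM (linear vertical axis) of 12 cell cycle genes in each of the 27 libraries, by day, with matrix by colour, lane by marker and group means as lines. CCNB1, PCNA and MCM2 sit lower and CDKN1A and CCND1 higher after day 2, while MKI67 overlaps between days on LN523.

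Other replication and mitotic genes, from lists drawn up beside the 40, were mostly called lower too. Of 40 other S phase genes, 35 were called lower and 0 higher on LN523, 36 and 0 on LN323, and 26 and 1 on LN521. CDC6 and ORC1, which load the helicase, fell by 2.84 (SE 0.50) and 2.65 (SE 0.38) on LN523, and HELLS, a chromatin remodeller, by 2.77 (SE 0.37). Of 52 other G2 and mitosis genes, 40 were lower and 2 higher on LN523, 43 and 1 on LN323, and 36 and 1 on LN521. On LN523, HMMR, a spindle protein, fell by 2.71 on the log2 scale, PKMYT1, an inhibitory kinase of CDK1, had a log2 fold change of -2.39, and CDCA5 (sororin), which keeps sister chromatids together, one of -2.32. The genes that rose on LN523 were the kinase PBK (0.95 ± 0.33) and FZR1 (0.55 ± 0.20), whose product directs the anaphase-promoting complex in late mitosis and G1. Of 30 other G1 regulators, 10 were higher and 10 lower on LN523, 12 and 10 on LN323, and 13 and 4 on LN521, beside the 26.4% higher and 23.7% lower of genes with a mean of 1 CPM or more on LN523 given above. MYBL2, an activator of mitotic genes named here after its values were seen, was among those lower on LN523 (-3.18 ± 0.41). CDKN2B (p15) rose from 0.20 ± 0.22 to 21.8 ± 6.55 CPM, BTG2 from 4.53 ± 0.96 to 79.3 ± 3.16 CPM and GADD45B from 3.19 ± 0.80 to 40.5 ± 22.6 CPM (SD, n = 3), the last 2 being growth arrest genes.

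Because S phase and mitotic genes fell together, the sequence before their transcription start was read for the words known from such promoters. RefSeq windows (GRCh38.p14) from 250 bases before to 50 after the start were at hand for 32 of the 40 members. The words searched on both strands were TTTGAA, the core of the cell cycle homology region (CHR) bound by the DREAM and MuvB complexes, CCAAT, bound by NF-Y, and the E2F words TTTGGCGC, TTTCGCGC, TTTCCCGC and TTTGCCGC, which can overlap each other where a palindrome holds 2. TTTGAA stood in 7 of 11 mitotic windows and 0 of 7 S phase windows, beside 18.2% of 27305 genes. CCAAT stood in 11 of 11 mitotic and 5 of 7 S phase members, beside 39.7% of genes. An E2F word stood in 6 of 7 S phase members, 3 of 4 of RB1 and E2F, and 1 of 11 mitotic members, beside 3.99% of genes. A match is a description of letters and does not show that a factor binds.

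The windows of PLK1 and CDC20 are shown for the mitotic genes, and those of MCM6, MCM3 and E2F1 for genes with E2F words. All 3 kinds of word are in capitals in every window, on either strand (ATTGG is CCAAT and TTCAAA is TTTGAA read on the other strand). PLK1 and CDC20 hold TTTGAA and no E2F word, MCM6, MCM3 and E2F1 hold E2F words and no TTTGAA, and CCAAT stands in all of them, with 1 and 2 copies in PLK1 and CDC20 and 2, 3 and 3 in MCM6, MCM3 and E2F1. Each is the 250 bases before the start, on the strand of the gene: chr16:23678639-23678888 (plus) for PLK1, chr1:43358731-43358980 (plus) for CDC20, chr2:135876444-135876693 (minus) for MCM6, chr6:52284743-52284992 (minus) for MCM3 and chr20:33686386-33686635 (minus) for E2F1.
PLK1: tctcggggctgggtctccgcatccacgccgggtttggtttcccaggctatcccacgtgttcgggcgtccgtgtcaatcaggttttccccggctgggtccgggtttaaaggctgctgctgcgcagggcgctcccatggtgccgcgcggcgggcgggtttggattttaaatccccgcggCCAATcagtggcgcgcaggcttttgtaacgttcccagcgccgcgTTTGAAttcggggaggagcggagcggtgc
CDC20: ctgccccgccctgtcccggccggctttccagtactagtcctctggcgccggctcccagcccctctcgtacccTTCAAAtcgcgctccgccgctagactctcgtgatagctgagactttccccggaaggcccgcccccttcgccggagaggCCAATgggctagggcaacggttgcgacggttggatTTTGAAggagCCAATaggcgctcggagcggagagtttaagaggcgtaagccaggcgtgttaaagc
MCM6: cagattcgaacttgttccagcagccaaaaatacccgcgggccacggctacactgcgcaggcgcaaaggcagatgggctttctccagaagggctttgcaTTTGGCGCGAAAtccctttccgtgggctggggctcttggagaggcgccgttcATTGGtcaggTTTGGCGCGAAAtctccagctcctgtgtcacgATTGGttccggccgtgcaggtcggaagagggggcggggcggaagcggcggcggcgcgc
MCM3: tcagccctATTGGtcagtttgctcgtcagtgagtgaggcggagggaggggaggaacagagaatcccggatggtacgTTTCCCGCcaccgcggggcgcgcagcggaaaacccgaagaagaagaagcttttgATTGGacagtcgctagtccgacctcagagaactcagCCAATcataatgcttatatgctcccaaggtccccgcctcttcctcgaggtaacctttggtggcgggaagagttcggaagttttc
E2F1: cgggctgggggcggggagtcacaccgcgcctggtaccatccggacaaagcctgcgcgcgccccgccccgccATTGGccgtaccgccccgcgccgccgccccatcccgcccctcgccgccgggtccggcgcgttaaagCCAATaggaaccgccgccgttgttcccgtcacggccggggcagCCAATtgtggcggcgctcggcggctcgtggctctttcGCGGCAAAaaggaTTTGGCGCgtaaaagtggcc

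PLK1 and CDC20, the mitotic genes shown, had medians of 136 and 329 CPM over the day 2 LN523 libraries and 27.8 and 73.6 CPM at day 22. MCM6 and MCM3 measured 347, 332 and 298 CPM and 716, 786 and 573 CPM at day 2 on LN523, and 69.9, 119 and 67.1 CPM and 142, 280 and 136 CPM at day 22. In MCM6 and MCM3, lane 2 was the highest of the day 22 libraries. Lane 2 was also the highest at day 22 on every matrix in CDC25A, E2F1, E2F2, E2F3, MCM2, MCM7, PCNA and TYMS. Their windows held an E2F word, as did that of CDK1, where lane 2 was not the highest on every matrix. Of the members whose windows held no E2F word, RRM2, CCNE1, CDK4, CDK6 and CCND3 had lane 2 highest and the others did not. The part of these words in the lane pattern was not tested.

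That lane pattern was general for S phase genes. At day 22, lane 2 was the highest of the 3 lanes on all 3 matrices in 19 members, among them 9 of 9 S phase genes, E2F1, E2F2, E2F3, CCNE1, CCNE2 and CDC25A, and 0 of 13 mitotic genes. The same held for 17.6% of 16366 genes with a mean of 1 CPM or more, and for 34 of 40 other S phase genes. At day 2 no lane was the highest on every matrix for any member, which is near the background of 1.9%, 1.37% and 2.7% of genes for lanes 1, 2 and 3. At day 32, lane 3 was the highest on all 3 matrices in 18 members (11.8% of genes), here 6 of 9 S phase and 7 of 13 mitotic genes. Lane is fitted as a block. In the fit of all 27 libraries the effect of a lane is shared by all days, and the highest lane differed between days. The block therefore cannot take this pattern out of the comparisons of days. Whether a lane stands for a culture, a harvest or only a sequencing lane is not stated, and these cannot be told apart.

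The balance of the 2 phases shows the same libraries. The CPM of the 9 S phase members summed to 3903, 4274 and 2892 at day 2 on LN523, to 783, 1707 and 860 at day 22 and to 606, 585 and 1359 at day 32. The 13 mitotic members summed to 3208, 3291 and 3409, then 821, 1494 and 1664, and then 1389, 1647 and 2232. The ratio of S phase to mitotic CPM was therefore 1.22, 1.30 and 0.85 at day 2, 0.95, 1.14 and 0.52 at day 22, and 0.44, 0.35 and 0.61 at day 32 on LN523. Over all matrices at day 22, lane 2 gave ratios of 1.14, 1.36 and 1.45 and the other 6 libraries lay between 0.52 and 0.95. At day 32 all 9 libraries lay between 0.35 and 0.84. These ratios are descriptions of summed levels and carry no test.

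**Figure D3:**
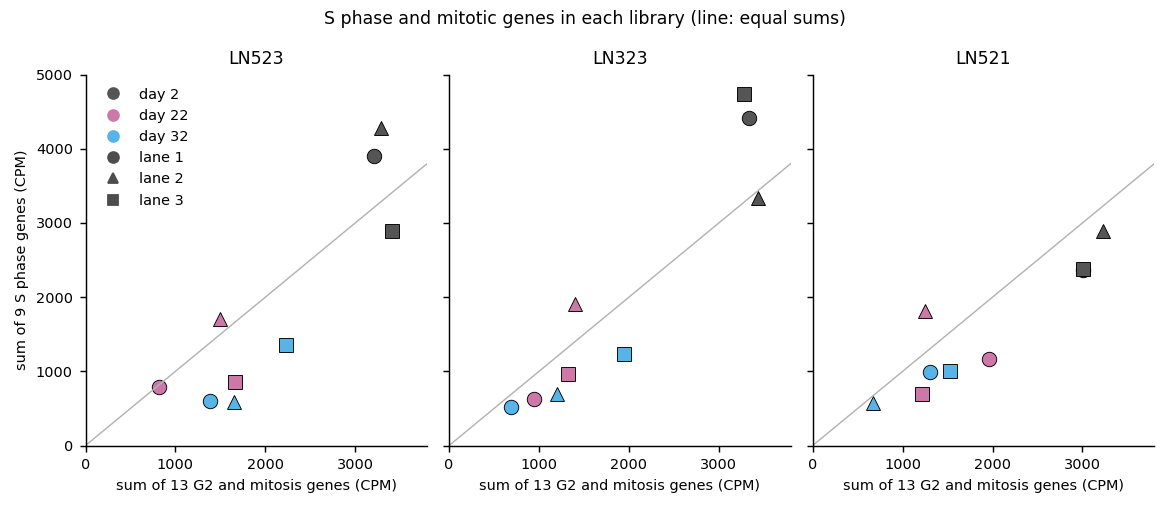
Summed CPM of the 9 S phase genes (vertical) against that of the 13 G2 and mitosis genes (horizontal) in each library, 1 panel per matrix, with day by colour and lane by marker. The grey line marks equal sums. The day 2 libraries lie at mitotic sums of 3010 to 3432 CPM, the day 22 lane 2 libraries lie above the line, and the day 32 libraries all lie below it.

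From day 22 to day 32, no member was called on any matrix by edgeR, where 0.381% of all genes were called on LN523, 0.0424% on LN323 and 0.268% on LN521. At an unadjusted p under 0.05 there were 7 members on LN523, 0 on LN323 and 11 on LN521. Counts at an unadjusted p, here and below, have no share of all genes at that cutoff beside them. Whether they exceed that share was not tested. DESeq2 called 1, 0 and 0 members on the same matrices. The 1 was CDKN2C on LN523, with 1.62, 3.14 and 3.55 CPM at day 22 and 8.53, 7.54 and 8.57 CPM at day 32, which do not overlap (log2 fold change 1.62 ± 0.50, edgeR adjusted p = 0.27, DESeq2 adjusted p = 0.0051). On LN523, 9 of the 13 mitotic members were higher in 3 of 3 lanes, beside 13.2% of genes with a mean of 1 CPM or more, and 0 were lower in 3 of 3 (10.8%). Their median was 0.37. The S phase median was -0.41. On LN323 the mitotic and S phase medians were -0.061 and -0.47, with 0 of 13 mitotic genes higher (11.8%) and 0 lower (9.48%) in 3 of 3 lanes. On LN521 they were -0.38 and -0.59, with 0 mitotic genes higher (15.2%) and 2 lower (15%), PLK1 and FOXM1. PLK1 was 23.2, 27.8 and 46.1 CPM at day 22 on LN523 and 43.3, 47.0 and 57.8 CPM at day 32. On LN521 it went from 61.2, 37.4 and 41.1 CPM to 43.1, 20.2 and 38.3 CPM, so each lane was higher on LN523 and each lower on LN521. The test of that difference gave 1.13 ± 0.34 on the log2 scale with an adjusted p of 0.58, so it did not pass.

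No member's change over days differed between matrices by the interaction test. For the change from day 2 to day 22, 0 members were called in LN523 against LN323 (0% of all genes), 0 in LN523 against LN521 (0.00446%) and 0 in LN323 against LN521 (0.0201%), with 0, 4 and 10 members at an unadjusted p under 0.05. For the change from day 22 to day 32 the counts were also 0 (0% of genes in each of the 3 pairs), with 1, 7 and 1 at an unadjusted p under 0.05. DESeq2 called 0 members in all 6. The 19 calls lower on LN521 against 24 on the other matrices are thus no shown difference between matrices.

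At day 2, before differentiation, LN323 stood above LN521 in 7 members and below it in 1, where 1.13% of genes were called higher and 1.37% lower. The 7 were E2F2 (0.92 ± 0.26), MCM2 (0.70 ± 0.17), MCM4 (0.58 ± 0.17), MCM5 (0.71 ± 0.17), MCM7 (0.69 ± 0.17), PCNA (0.59 ± 0.18) and RRM2 (0.89 ± 0.19), in log2 fold change. MCM2 measured 550, 417 and 612 CPM on LN323 and 275, 338 and 294 CPM on LN521, with no overlap, and RRM2 measured 241, 124 and 264 CPM against 111, 139 and 76.6 CPM, which overlap. MKI67 was lower on LN323 (-0.66 ± 0.19) and was the 1 member called on LN523 against LN521 (-0.72 ± 0.19, 0.624% of genes called). Its LN521 values were 349, 203 and 121 CPM against 137, 169 and 130 CPM on LN323, and without LN521 day 2 replicate 1 the differences were -0.15 and -0.19 and did not pass. In LN523 against LN323 no member was called (0.233% of genes, 1 member at an unadjusted p under 0.05, 0 by DESeq2).

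These day 2 calls were not stable. The median of all genes was itself -0.20 in LN323 against LN521 and -0.19 in LN523 against LN521. DESeq2 called 1 member in the first and 0 in the second, and the fit of all 27 libraries and the stricter filter on low counts called 0 in both. The LN323 count was 0 without LN323 day 2 replicate 1 or 3, 17 without LN323 day 2 replicate 2, 1 without LN521 day 2 replicate 1 and 5 without either of the other LN521 libraries. The LN523 count was 8 without LN523 day 2 replicate 3 and 0 without any of LN521 replicates 1 and 2 and LN523 replicates 1 and 2.

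**Figure D4:**
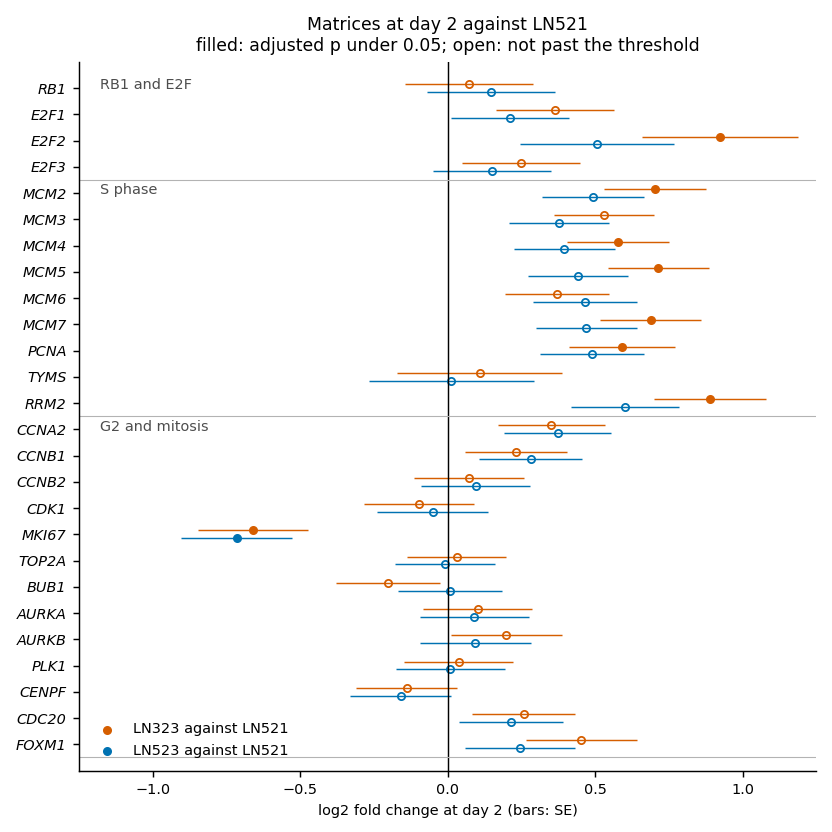
Log2 difference between matrices at day 2 (horizontal axis) for RB1, the E2F factors, S phase and mitotic genes, LN523 and LN323 each against LN521. Points are fitted values, bars are standard errors and filled points passed an adjusted p of 0.05. The S phase genes other than TYMS lie to the right of 0 and MKI67 to the left.

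At day 22 no member was called between matrices. The share of all genes called was 0.013% in LN523 against LN323, 0.572% in LN523 against LN521 and 0.616% in LN323 against LN521, and 0, 5 and 8 members had an unadjusted p under 0.05. DESeq2 called 0 in each. Leaving out 1 library gave up to 2 calls in LN523 against LN521 and up to 4 in LN323 against LN521, both without LN521 day 22 replicate 3. MKI67 passed in LN523 against LN521 without LN521 day 22 replicate 1 (0.62 ± 0.18), where it measured -0.30 ± 0.23 with all libraries.

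At day 32 the main test again called no member (0%, 0.0609% and 0.117% of all genes in the same order of pairs), with 9, 10 and 2 members at an unadjusted p under 0.05 and 0 by DESeq2. Here 1 library decided the outcome for LN523 against LN521. With all libraries, 9 of 13 mitotic members were higher on LN523 in 3 of 3 lanes, and MKI67 differed by 0.70 ± 0.30. The same lane order held for 3748 of 39377 genes tested. These include genes under a mean of 1 CPM, so this background is unlike that of the lane shares given above. Without LN521 day 32 replicate 1, 15 members were called higher on LN523 and 1 lower, beside 2.82% and 2.14% of all genes. The 15 were CDKN2A, E2F2, RRM2 and 12 of the 13 mitotic genes, all but CDK1. MKI67 then differed by 1.45 ± 0.15, CENPF, a kinetochore protein, by 1.24 ± 0.14, FOXM1 by 1.17 ± 0.19 and CDC20 by 1.17 ± 0.15 on the log2 scale. CDKN1A was the member called lower (-0.60 ± 0.14). Some marker lists moved with this split. The 7 pigment epithelium markers summed to 2210 and 2050 CPM in the remaining LN521 libraries. They summed to 607 CPM in the omitted library and 1213, 814 and 911 CPM on LN523. In the same order, the neuronal markers summed to 151 and 142 CPM, to 624 CPM, and to 402, 405 and 241 CPM. The photoreceptor markers summed to 116 and 179 CPM, to 294 CPM, and to 348, 271 and 152 CPM, so LN523 overlapped the remaining LN521 libraries. The part of these markers in the difference was not tested. Leaving out any other library gave 0 calls.

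Read by library, LN523 held 100, 115 and 150 CPM of MKI67 at day 32 and LN521 held 109, 37.2 and 74.7 CPM. LN521 replicate 1 was the highest of its group, and the others lay below all LN523 libraries. For CDC20 the values were 75.3, 109 and 119 CPM on LN523 and 105, 34.0 and 83.9 CPM on LN521. In LN323 against LN521 the same omission gave 6 members higher (RRM2, MKI67, TOP2A, CENPF, CDC20 and FOXM1) and CDKN1A lower (-0.97 ± 0.14), beside 3.2% and 2.36% of all genes, and leaving out LN323 replicate 1 gave 1 call. CDKN1A measured 136, 73.3 and 70.9 CPM on LN323 and 177, 211 and 101 CPM on LN521 at day 32. With LN521 at 2 libraries, and with the omitted library chosen for its markers after seeing the data, these values describe the remaining libraries.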

How the data were processed

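Total RNA (TruSeq stranded, Ribo-Zero Gold) was sequenced as paired 150-base reads. The authors trimmed reads with cutadapt, aligned them with STAR 2.5.2b to GRCh38 and counted genes with featureCounts 1.5.1; rRNA and mitochondrial genes were removed, and rounded counts per gene were deposited. TPM values were also deposited, made by the authors from counts and gene length. They were used here to compare levels between genes and, for the histone sums, between matrices. The strand setting of counting is not given in the sources used here, and 68.8% of non-zero counts were even.

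Counts were tested with edgeR 4.0.16 (R 4.3.3): genes with more than 1 count in sum, TMM scaling, the quasi-likelihood test and Benjamini-Hochberg adjustment over all genes at 0.05. Comparisons of days and of changes used all 27 libraries (biological coefficient of variation 45.1%) and comparisons of matrices used the 9 libraries of a day, with lane, equal to the replicate number, as a block as in the study. The labels give same-numbered libraries 1 lane, and across matrices their deviations from the group means correlated by 0.52 and 0.59 on average between LN523 and LN323 at days 22 and 32, by -0.29 at day 2, and by -0.07 to 0.16 in the other pairs. CPM were computed after TMM. Each library counted as 1 replicate. Libraries of a group differed beyond sampling noise (mean chi-square per gene 14.7 to 236 between pairs), which does not show that they were separate cultures. The fit was tried on simulated counts of the day 2 libraries only, with less spread than the measured libraries showed. That trial does not vouch for the other fits. Alternatives were RLE and total count scaling, DESeq2 1.42.0, filterByExpr, no block, other sets of libraries and leaving out each library.

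The members and lists were chosen with earlier results of these data known, and the histone list and the omission of LN521 replicate 1 at days 22 and 32 together were chosen after the values were seen. Genes were named by rule: 8 fixed members, the 3 largest changes called per role and per other list on LN523, members called against their role, up to 5 called per matrix comparison, and the 3 highest and 3 lowest by TPM; other members named complete a role or a count and were chosen after their values were seen. Gene positions and overlaps came from GENCODE 44 (GRCh38) and promoter windows from RefSeq.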

Additional observations from a re-analysis of the deposited data

How the results depend on the processing

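The counts of members called between day 2 and day 22 stayed within 1.5 times of the main count under every alternative run; leaving out 1 library gave 27 to 33 on LN523, 28 to 33 on LN323 and 23 to 30 on LN521. From day 22 to day 32 the count was 1 on LN523 with DESeq2 and 0 under the other alternatives, and the tests of a difference in change stayed at 0 under every alternative. RLE scaling moved no count by more than 1.5 times; it gave 33 on LN323 and 30 on LN521 between day 2 and day 22, and 11 in LN323 against LN521 at day 2. In LN523 against LN521 at day 2 the main count of 1 became 2 with no replicate block and 0 with DESeq2, with filterByExpr and with all 27 libraries. In LN323 against LN521 at day 2 the main count of 8 became 1 with DESeq2, 0 with filterByExpr and with all 27 libraries, and 5 with total count scaling. The replicate block moved no other count by more than 1.5 times. Without replicate 1 of LN521 at days 22 and 32, the count in LN523 against LN521 was 1 at day 22 and 16 at day 32, and 7 in LN323 against LN521 at day 32.

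Leaving out 1 library gave 0 to 3 calls in LN523 against LN323, 0 to 8 in LN523 against LN521 and 0 to 17 in LN323 against LN521 at day 2; 0, 0 to 2 and 0 to 4 at day 22; and 0, 0 to 16 and 0 to 7 at day 32. Among 1021 values of named genes under alternatives, 911 kept direction and call, 96 lost the call, 10 gained it and 4 reversed, all with 1 library left out and none called: CCNE2 ranged from -0.14 (without the lane 2 library of day 22) to 0.89 on LN523 and from -0.27 (likewise) to 0.83 on LN323, MCM2 from -0.55 to 0.11 (without day 22 replicate 3) on LN521, and MKI67 from -0.68 to 0.078 (without day 22 replicate 1) on LN523. The cause was not tested.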

Other observations

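Replication-dependent histones, whose RNA is made in S phase and lacks a poly(A) tail, were readable in these total RNA libraries. The list of 64 genes was drawn up after the data were seen, near-identical copies make single genes uncertain, and the counts are given as a description. From day 2 to day 22, 48 of 64 were called lower and 0 higher on LN523, 51 and 0 on LN323, and 5 lower and 9 higher on LN521. Over all genes, 10.2%, 10.9% and 8.09% were called lower and 11.5%, 11.8% and 10.8% higher on LN523, LN323 and LN521, so the LN521 histone counts lie near the background. Their summed level at day 2 was 14883 ± 1928 CPM (SD, n = 3) on LN523, 18593 ± 1527 CPM on LN323 and 9543 ± 1457 CPM on LN521, and at day 22 it was 7777 ± 2984, 9060 ± 2945 and 10634 ± 1638 CPM. The LN521 sum was thus the lowest of the matrices at day 2 in CPM, with no overlap with the others, and the day 22 sums overlapped between matrices. In summed TPM the day 2 libraries ran from 63966 to 85905 on LN521 and from 84581 to 102700 on LN523, which overlap, so the separation depends on the scaling. The difference between matrices in this sum was not tested.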
